A study of Mus musculus with 6 samples.

Results

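Chemokines are small secreted proteins that draw leukocytes along gradients into injured tissue. Their transcripts were described for 8 genes, listed with earlier results of these data known, namely Ccl2, Ccl5, Ccl7, Cxcl1, Cxcl2, Cxcl5, Cxcl10 and Cxcl12. They are 8 of the 54123 genes with a transcript in the deposited quantifications, and all 8 were among the 17084 genes with enough reads to be tested. The samples were muscle satellite cells, the resident stem cells of skeletal muscle, from adult C57BL/6 mice. In every group the gastrocnemius and tibialis anterior had received cardiotoxin, a snake venom component that kills muscle fibres, and fluorescence-activated sorting followed at 30 h. The 3 groups were Jmjd3 KO, Utx KO and Tdt Control, with 2 libraries each. The series title writes the knockouts as JMJD3scKO and UTXscKO and the controls as wild-type. JMJD3 (gene Kdm6b) and UTX (gene Kdm6a) are enzymes that take methyl groups off a repressive site of histone H3. The Cre driver, the meaning of Tdt, the markers used in the sort, the sex and the number of mice behind each library are not given in the sources used here. All groups were injured, so no uninjured baseline enters any comparison, and p-values measure the spread between these libraries, which may be technical.

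Chemokines signal through receptors of the G protein-coupled kind and are held on heparan sulfate chains at cell surfaces. CCL2 and CCL7 act through CCR2 and call in monocytes, CCL5 acts on monocytes and lymphocytes, and CXCL1, CXCL2 and CXCL5 act through CXCR2 and call in neutrophils. CXCL10 is an interferon-induced ligand of CXCR3 on T cells, and CXCL12 is the homeostatic ligand of CXCR4 and ACKR3 that guides progenitor cells. Most inflammatory chemokine genes are induced through NF-kB and their messages are short-lived, and in injured muscle neutrophils arrive before monocytes.

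Depth ran from 63607780 to 64928614 estimated reads for the Jmjd3 KO libraries, 53750675 to 59768154 for Utx KO and 65893124 to 77675388 for Tdt Control. Levels are given as CPM, counts per gene set to a common normalised depth, which compare 1 gene between libraries. The targeted genes were read first. Kdm6b had levels of 15.9 and 16.5 CPM in Jmjd3 KO, 23.0 and 22.2 CPM in Utx KO and 29.9 and 22.7 CPM in Tdt Control, and was 1.62-fold lower in Jmjd3 KO than in Tdt Control (log2 fold change -0.70 ± 0.12 SE, edgeR quasi-likelihood test, adjusted p = 0.0243). With either Jmjd3 KO library left out the call was lost (0.123 to 0.167). Between the knockouts Kdm6b differed by -0.48 ± 0.12 (Jmjd3 KO against Utx KO) and was not called (edgeR adjusted p = 0.0501). Kdm6a stood at 7.68 and 7.38 CPM in Utx KO, against 32.9 and 34.0 CPM in Tdt Control, a level 4.44-fold lower (edgeR adjusted p = 1.02e-05). In Jmjd3 KO Kdm6a stood at 30.3 and 32.4 CPM and was not called against Tdt Control (adjusted p = 0.412). The satellite cell markers were abundant in every library, with a summed level of 3823 to 4117 CPM over 10 genes, and Pax7, the defining transcription factor of these cells, stood between 134.3 and 148.3 CPM.

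Transcripts listed as markers of other cell types were present in the libraries. Summed over 15 neutrophil markers, CPM were 306.6 and 234.7 in Jmjd3 KO, 198.5 and 232.1 in Utx KO, and 154.7 and 171.0 in Tdt Control. In Jmjd3 KO 4 of the 13 neutrophil markers tested were called higher than in Tdt Control, and 1 in Utx KO, beside 1.97% and 0.790% of all genes. Between the knockouts 2 of the 13 were called higher in Jmjd3 KO and 0 lower, beside 5.13% and 2.89% of all genes. Of the defining neutrophil genes, Ly6g stood at 0 to 0.0930 CPM and Camp at 0 to 0.0395 CPM. S100a9 reached 54.3 to 70.3 CPM in Jmjd3 KO, 44.3 to 58.0 CPM in Utx KO and 31.01 to 33.6 CPM in Tdt Control. Against Tdt Control 11 of the 13 tested had log2 fold changes above 0 in Jmjd3 KO and 9 in Utx KO. Ngp went the other way on 3 to 35 reads per library. It had 0.0914 and 0.0619 CPM in Jmjd3 KO, 0.0558 and 0.051 CPM in Utx KO, and 0.2895 and 0.5313 CPM in Tdt Control. Over 17 macrophage and monocyte markers the sums were 388.0 and 352.1 CPM in Jmjd3 KO, 229.4 and 264.8 CPM in Utx KO, and 260.4 and 312.2 CPM in Tdt Control. Of these 17, 3 were called higher in Jmjd3 KO and 1 lower in Utx KO than in Tdt Control, beside 1.97% and 0.925% of all genes. Between the knockouts 9 were called higher in Jmjd3 KO, beside 5.13% of all genes. Against Tdt Control 11 of the 17 had log2 fold changes above 0 in Jmjd3 KO and 2 in Utx KO. At an unadjusted edgeR p under 0.05 there were 4 in Jmjd3 KO and 11 in Utx KO. Adgre1, the gene of the macrophage antigen F4/80, had 4.59 and 5.28 CPM in Jmjd3 KO, 3.63 and 4.22 CPM in Utx KO, and 4.87 and 6.15 CPM in Tdt Control. The 10 fibro-adipogenic progenitor markers summed to 1242 and 1225 CPM in Jmjd3 KO, 1046 and 1187 CPM in Utx KO and 1091 and 1074 CPM in Tdt Control. Col3a1, a collagen gene, made up most of that sum. Against Tdt Control 0 of these 10 were called by edgeR in either knockout, with 4 in Jmjd3 KO and 7 in Utx KO at an unadjusted p under 0.05. Over all 17084 genes 3410 in Jmjd3 KO and 2768 in Utx KO were at an unadjusted p under 0.05. Between the knockouts 4 were called higher in Jmjd3 KO and 0 lower. Dcn, a proteoglycan gene, stood at 58.3 and 55.8 CPM in Jmjd3 KO against 29.3 and 37.2 CPM in Utx KO. Col1a1 stood at 49.1 and 40.4 CPM in Jmjd3 KO against 14.0 and 26.04 CPM in Utx KO. Over the 10 markers the log2 fold changes between the knockouts ran from -0.291 to 1.155, with 7 above 0. Pdgfra had 21.4 and 19.0 CPM in Jmjd3 KO and 16.3 and 17.95 CPM in Utx KO. Dpt went the other way, at 28.5 and 27.0 CPM in Jmjd3 KO against 32.4 and 35.55 CPM in Utx KO. The 10 endothelial markers summed to 48.0 to 69.9 CPM with none called in any comparison, and the 12 lymphoid markers to 0.204 to 0.395 CPM. Against Tdt Control 2 of the endothelial markers had log2 fold changes above 0 in Jmjd3 KO and 1 in Utx KO. At an unadjusted edgeR p under 0.05 there were 1 in Jmjd3 KO and 5 in Utx KO. The chemokine levels below are those of the whole sort, their source cell cannot be read from them, and the part of these other cells in the chemokine results was not tested. Fewer cells of a type and less RNA per cell cannot be told apart in such bulk libraries.

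**Figure D1:**
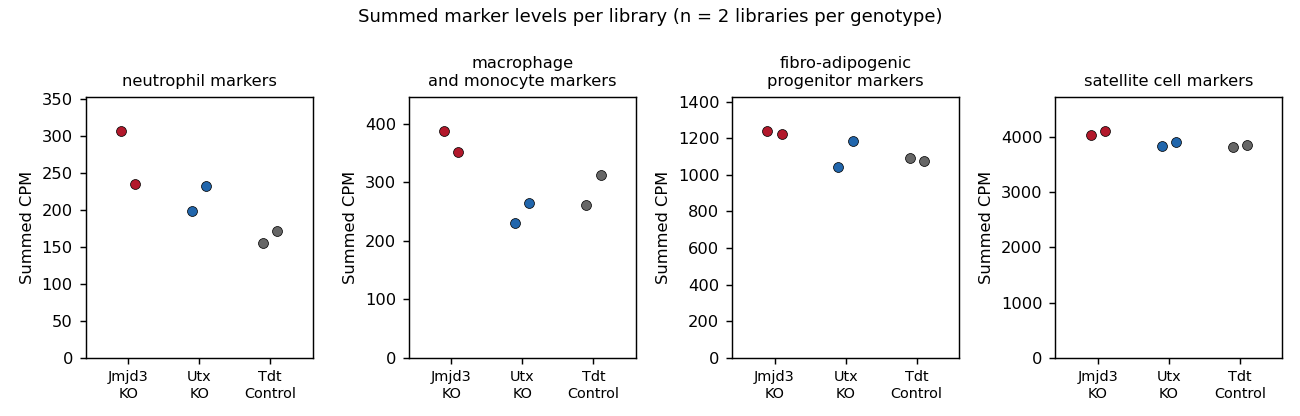
Summed CPM (y axis, from 0) of the neutrophil, macrophage and monocyte, fibro-adipogenic progenitor and satellite cell marker lists, 1 point per library, with 2 libraries per genotype. The neutrophil sum is 306.6 and 234.7 CPM in Jmjd3 KO, 198.5 and 232.1 CPM in Utx KO and 154.7 and 171.0 CPM in Tdt Control, and the satellite cell sum stays between 3823 and 4117 CPM.

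The 8 genes lie in 5 places of the GRCm38 genome (coordinates of GENCODE M21). Ccl2 (chromosome 11, 82035571 to 82037453, plus strand) and Ccl7 (82045712 to 82047525, plus strand) are neighbours, and Ccl5 (83525778 to 83530518, minus strand) lies further along chromosome 11. Cxcl5 (chromosome 5, 90759360 to 90761624), Cxcl1 (90891241 to 90893115) and Cxcl2 (90903871 to 90905938) form a plus-strand cluster, and Cxcl10 (chromosome 5, 92346638 to 92348889, minus strand) lies apart from it. Cxcl12 (chromosome 6, 117168535 to 117181367, plus strand) lies alone among chemokine genes. Of the 31-base words in the transcripts of Cxcl2, 7.59% also occur in Cxcl3, and 4.47% of those of Cxcl10 occur in Art3, which overlaps it on the other strand, so reads could be split between these pairs. For the other 6 genes that share was at most 0.871%. Kdm6b is on chromosome 11 too, 12.6 Mb from Ccl2 and 14.1 Mb from Ccl5.

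Promoter sequences were matched for 4 of the 8 genes, the 250 bases before the transcription start of Cxcl1, Cxcl2, Cxcl10 and Cxcl12 in RefSeq (GRCm38.p6). They are shown so that the letters at 3 genes called higher in Jmjd3 KO than in Tdt Control can be set beside those at Cxcl12, which was called lower. Ccl2 and Cxcl5 were also called higher and are not among the 4. Capitals mark matches, on either strand, to the NF-kB consensus, to a pair of interferon regulatory factor half-sites (GAAANNGAA) and to the AP-1 site (TGANTCA).

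Cxcl1 (chr5:90890995-90891244, plus strand): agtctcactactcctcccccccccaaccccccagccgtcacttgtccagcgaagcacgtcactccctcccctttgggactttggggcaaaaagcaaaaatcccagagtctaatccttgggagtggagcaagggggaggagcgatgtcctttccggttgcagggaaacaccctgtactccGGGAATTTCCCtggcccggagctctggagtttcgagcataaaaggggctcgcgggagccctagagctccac
Cxcl2 (chr5:90903649-90903898, plus strand): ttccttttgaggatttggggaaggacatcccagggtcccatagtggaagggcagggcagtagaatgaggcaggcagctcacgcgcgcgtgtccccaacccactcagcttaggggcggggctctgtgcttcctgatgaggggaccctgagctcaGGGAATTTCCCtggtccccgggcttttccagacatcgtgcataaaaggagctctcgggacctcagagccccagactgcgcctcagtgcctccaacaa
Cxcl10 (chr5:92348890-92349139, minus strand): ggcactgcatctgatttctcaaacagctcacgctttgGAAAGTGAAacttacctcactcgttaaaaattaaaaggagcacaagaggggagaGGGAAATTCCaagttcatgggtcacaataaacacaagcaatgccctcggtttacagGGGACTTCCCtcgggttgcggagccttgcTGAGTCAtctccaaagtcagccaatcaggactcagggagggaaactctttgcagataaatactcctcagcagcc
Cxcl12 (chr6:117168285-117168534, plus strand): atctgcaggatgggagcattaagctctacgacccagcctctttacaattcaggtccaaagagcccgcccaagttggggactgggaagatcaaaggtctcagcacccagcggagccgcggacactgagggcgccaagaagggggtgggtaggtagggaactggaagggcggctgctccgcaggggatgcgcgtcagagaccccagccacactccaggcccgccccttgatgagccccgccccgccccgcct

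Counted back from the start site, Cxcl1 holds the NF-kB consensus at -71 to -62 and, overlapping it, at -70 to -61. Cxcl2 holds the same letters at -97 to -88 and -96 to -87. Cxcl10 holds the NF-kB consensus at -159 to -150 and at -103 to -94, the interferon regulatory factor pair at -213 to -205 and the AP-1 site at -74 to -68. The window of Cxcl12 holds none of these letters. Among 32851 promoter windows of the same length, 3.90% hold the NF-kB consensus, 7.13% the interferon regulatory factor pair and 6.75% the AP-1 site. The TATAAA form of the TATA box is in none of the 4 windows and in 12.4% of all. A match is a description of the letters, and binding was not measured.

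Levels between genes are compared as TPM, which divide by transcript length. Cxcl1 was the most abundant, with 212.5 and 223.3 TPM in Jmjd3 KO, 177.2 and 200.2 TPM in Utx KO, and 125.2 and 135.0 TPM in Tdt Control, above 97.5% of the genes tested. Cxcl2 followed with 56.1 to 97.4 TPM over the 6 libraries, then Cxcl12 with 33.0 to 43.1, Ccl2 with 20.0 to 44.8, Ccl7 with 13.8 to 27.3, Cxcl5 with 8.96 to 15.8, Cxcl10 with 1.39 to 2.88 and Ccl5 with 0.182 to 0.710 TPM. The ranges of Cxcl12 and Ccl2, of Ccl2 and Ccl7 and of Ccl7 and Cxcl5 overlap over the 6 libraries, and the other neighbours in this order do not. Within Jmjd3 KO the order of Cxcl12 and Ccl2 was the other way round, with Ccl2 at 43.6 and 44.8 TPM and Cxcl12 at 34.8 and 35.1 TPM. In Utx KO Ccl2 stood at 20.0 and 22.5 TPM and Cxcl12 at 34.8 and 33.0 TPM, and in Tdt Control Ccl2 stood at 24.4 and 26.9 TPM and Cxcl12 at 36.6 and 43.1 TPM. Together the 8 genes summed to 445.0 and 429.5 TPM in Jmjd3 KO, 317.8 and 349.8 TPM in Utx KO and 271.2 and 302.1 TPM in Tdt Control. Cxcl1 made up 50.2% and 49.5% of that sum in Jmjd3 KO, 55.8% and 57.2% in Utx KO, and 46.2% and 44.7% in Tdt Control. The share of Cxcl12 was 7.81% and 8.18% in Jmjd3 KO, 10.9% and 9.42% in Utx KO, and 13.5% and 14.3% in Tdt Control.

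**Figure D2:**
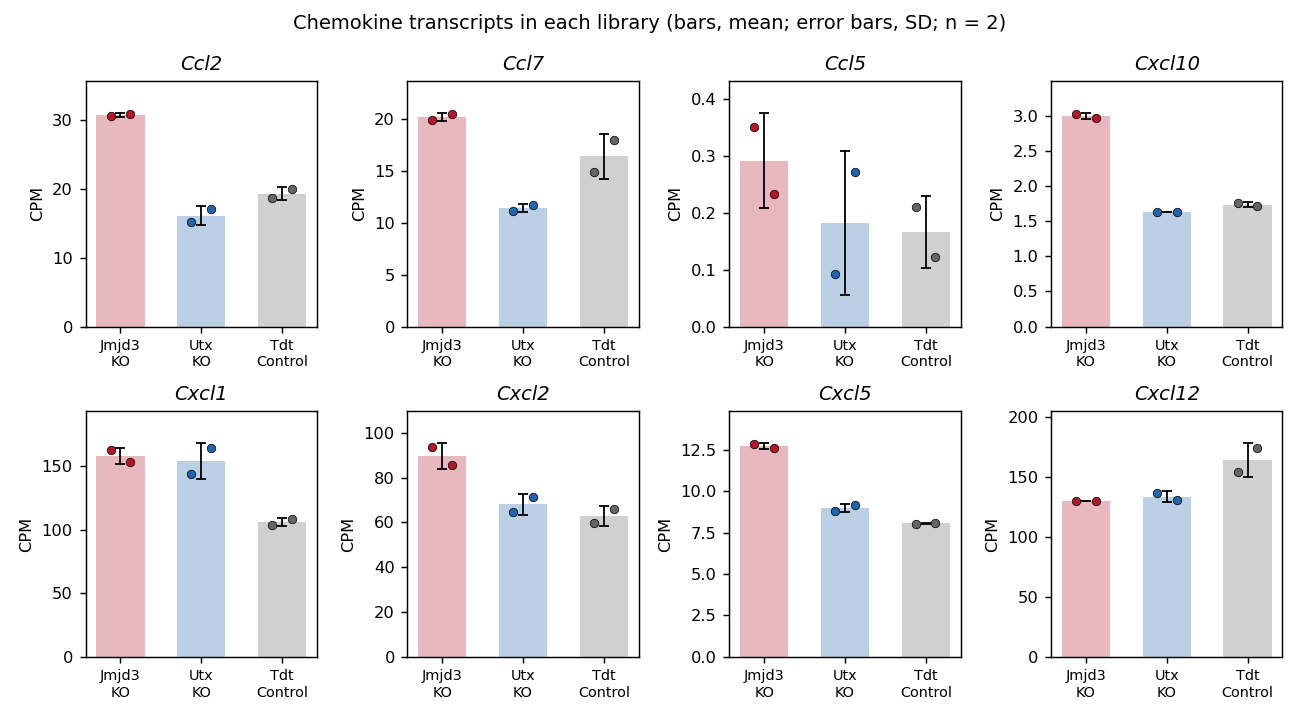
CPM (y axes, from 0, a scale of its own for each gene) of the 8 chemokine genes in Jmjd3 KO, Utx KO and Tdt Control libraries. Points are libraries, bars are means and error bars are SD (n = 2). Ccl2, Ccl7, Cxcl2, Cxcl5 and Cxcl10 have both Jmjd3 KO libraries above all others, Cxcl1 has all 4 knockout libraries above both controls, and Cxcl12 has them all below.

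The knockouts carried different chemokine profiles at 30 h. In Jmjd3 KO against Tdt Control 5 of the 8 genes rose (Ccl2, Cxcl1, Cxcl2, Cxcl5 and Cxcl10) and 1 fell (Cxcl12), where 1.97% of all genes tested were called higher and 1.03% lower. In Utx KO against Tdt Control 1 of the 8 rose (Cxcl1) and 1 fell (Ccl7), where 0.790% of all genes were called higher and 0.925% lower. Set against each other directly, Jmjd3 KO had 5 of the 8 above Utx KO (Ccl2, Ccl7, Cxcl2, Cxcl5 and Cxcl10) and 0 below it, where 5.13% of all genes were called higher and 2.89% lower. At an unadjusted p under 0.05 the count below was also 0, as it was with DESeq2. The 8 genes had a median log2 fold change of 0.62 for Jmjd3 KO and 0.01 for Utx KO against Tdt Control, and of 0.58 between the knockouts, beside medians over all genes of -0.01, 0.00 and 0.00. Calls were made at an edgeR p under 0.05 after Benjamini-Hochberg adjustment over the 17084 genes. Both comparisons with Tdt Control share its 2 libraries, and the number of chemokine genes called depended on single libraries. Leaving out 1 library at a time gave 1 to 5 called in Jmjd3 KO against Tdt Control, with 1 (Ccl2) when Jmjd3 KO replicate 1 was left out and 3 when Tdt Control replicate 1 was. For Utx KO against Tdt Control it gave 0 to 1, with 0 without either Utx KO library or either Tdt Control library, and between the knockouts 2 to 5, with 3 when Utx KO replicate 2 was left out and 2 when Utx KO replicate 1 or either Jmjd3 KO library was.

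**Figure D3:**
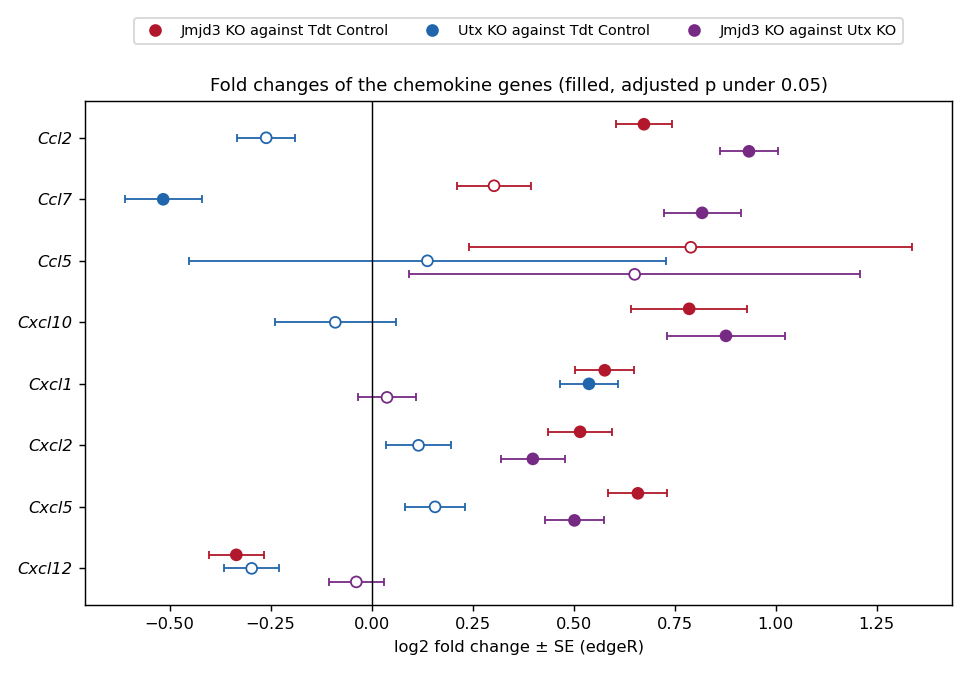
Log2 fold change (x axis, edgeR) of each chemokine gene (y axis) in Jmjd3 KO against Tdt Control, Utx KO against Tdt Control and Jmjd3 KO against Utx KO. Points are estimates, bars are SE (2 libraries per group) and filled points have an adjusted p under 0.05. Ccl2 and Ccl7 have estimates below 0 in Utx KO and above 0 in Jmjd3 KO, and Cxcl1 has nearly the same estimate in both knockouts.

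Ccl2 encodes the main monocyte attractant of injured muscle. Its levels were 30.5 and 30.9 CPM in Jmjd3 KO, 15.1 and 17.0 CPM in Utx KO, and 18.6 and 19.9 CPM in Tdt Control. The Jmjd3 KO libraries were the highest, the Utx KO libraries the lowest, and no pair of groups overlapped. Ccl2 rose in Jmjd3 KO relative to Tdt Control by a log2 fold change of 0.67 ± 0.07 (SE), 1.595-fold, with an edgeR adjusted p of 0.00446. In Utx KO its change from Tdt Control was -0.26 ± 0.07 and was not called (adjusted p = 0.135). Between the knockouts the difference was 0.93 ± 0.07, 1.91-fold higher in Jmjd3 KO (adjusted p = 0.000717), the smallest adjusted p among the 8 genes in any comparison. It was called higher in Jmjd3 KO in 14 of 14 settings of the processing, both against Tdt Control (adjusted p up to 0.0425) and against Utx KO (up to 0.0108).

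Ccl7, the neighbour of Ccl2, encodes a second CCR2 ligand. It had 19.9 and 20.4 CPM in Jmjd3 KO, 11.2 and 11.7 CPM in Utx KO, and 14.8 and 17.9 CPM in Tdt Control. Here too the order was Jmjd3 KO, Tdt Control, Utx KO without overlap, but the Tdt Control libraries differed more from each other than those of the knockouts. Ccl7 fell in Utx KO relative to Tdt Control by 0.52 ± 0.10 on the log2 scale (edgeR adjusted p = 0.0463), a call that was lost with transcript length offsets, with only the 4 libraries compared and without any of the 6 libraries in turn (adjusted p from 0.0543 to 0.23). Its change in Jmjd3 KO against Tdt Control was 0.30 ± 0.09 (adjusted p = 0.128). The difference between the knockouts was 0.82 ± 0.10, 1.76-fold higher in Jmjd3 KO (adjusted p = 0.00393), and was called in 14 of 14 settings. The ratio of Ccl2 to Ccl7 in TPM was 1.65 and 1.64 in Jmjd3 KO, 1.45 and 1.55 in Utx KO, and 1.35 and 1.20 in Tdt Control.

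Ccl5 encodes an attractant of monocytes and T cells. It was near the detection limit, with 23 and 15 reads in Jmjd3 KO, 5 and 16 in Utx KO, and 16 and 8 in Tdt Control, which is 0.3504 and 0.232, 0.0930 and 0.272, and 0.211 and 0.121 CPM in the same order. The range of Utx KO covers that of Tdt Control and overlaps that of Jmjd3 KO. With log2 fold changes of 0.79 ± 0.55 in Jmjd3 KO and 0.14 ± 0.59 in Utx KO against Tdt Control (adjusted p = 0.471 and 0.939), a difference was not detectable at this depth. Between the knockouts the change was 0.65 ± 0.56 (adjusted p = 0.519).

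Cxcl1, the mouse counterpart of the growth-regulated oncogene chemokines, was the one gene of the 8 that rose in both knockouts. It had 162.5 and 153.5 CPM in Jmjd3 KO, 143.9 and 163.8 CPM in Utx KO, and 103.8 and 108.0 CPM in Tdt Control. All 4 knockout libraries lay above both controls and the knockouts overlapped. Its log2 fold change against Tdt Control was 0.58 ± 0.07 in Jmjd3 KO (1.49-fold, edgeR adjusted p = 0.00942) and 0.54 ± 0.07 in Utx KO (1.45-fold, adjusted p = 0.0213). The call in Jmjd3 KO was lost when Jmjd3 KO replicate 1 or Tdt Control replicate 1 was left out (0.0647 to 0.0886), and that in Utx KO without either Utx KO library and without either Tdt Control library (0.0531 to 0.108). The difference between the knockouts was 0.04 ± 0.07 (adjusted p = 0.792), and its sign turned when Jmjd3 KO replicate 1 (-0.005) or Utx KO replicate 1 (-0.052) was left out.

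Cxcl2, which encodes macrophage inflammatory protein MIP-2, lies next to Cxcl1 and showed another pattern. It had 93.7 and 85.7 CPM in Jmjd3 KO, 64.5 and 71.5 CPM in Utx KO, and 59.6 and 65.9 CPM in Tdt Control. The Jmjd3 KO libraries were the highest, and Utx KO and Tdt Control overlapped. Cxcl2 rose in Jmjd3 KO by 0.52 ± 0.08 (log2) relative to Tdt Control (1.43-fold, edgeR adjusted p = 0.02) and by 0.40 ± 0.08 relative to Utx KO (1.32-fold, adjusted p = 0.0261). In Utx KO against Tdt Control its change was 0.12 ± 0.08 (adjusted p = 0.531). The call against Tdt Control was lost when Jmjd3 KO replicate 1 or Tdt Control replicate 1 was left out (0.0974 to 0.142), and the call against Utx KO without any of the 4 libraries of the knockouts in turn (0.056 to 0.162). In TPM the ratio of Cxcl1 to Cxcl2 was 2.29 and 2.34 in Jmjd3 KO, 2.92 and 2.96 in Utx KO, and 2.23 and 2.11 in Tdt Control. Cxcl3, with which Cxcl2 shares sequence, had 11.6 and 13.3 CPM in Jmjd3 KO, 11.5 and 11.7 CPM in Utx KO, and 8.12 and 11.6 CPM in Tdt Control, and was called in none of the 3 comparisons by edgeR (adjusted p of 0.281, 0.513 and 0.738).

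Cxcl5, the third CXCR2 ligand of the cluster, was the scarcest of the 3. It had 12.9 and 12.6 CPM in Jmjd3 KO, 8.84 and 9.15 CPM in Utx KO, and 8.04 and 8.09 CPM in Tdt Control. Replicates lay close together, and the groups did not overlap. Cxcl5 rose in Jmjd3 KO by 0.66 ± 0.07 (log2) relative to Tdt Control (1.58-fold, edgeR adjusted p = 0.00522), a call lost without Jmjd3 KO replicate 1 (0.057). Relative to Utx KO it rose by 0.50 ± 0.07 (1.42-fold, adjusted p = 0.00922), a call lost without either Jmjd3 KO library and without Utx KO replicate 1 (0.0547 to 0.0675). Its change in Utx KO against Tdt Control was 0.16 ± 0.07 (adjusted p = 0.355).

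Cxcl10 encodes a T-cell attractant induced by interferons. It was scarce, with 88 to 199 reads per library, and had 3.03 and 2.97 CPM in Jmjd3 KO, 1.64 and 1.63 CPM in Utx KO, and 1.76 and 1.72 CPM in Tdt Control. Both Jmjd3 KO libraries lay above the other 4. Its log2 fold change in Jmjd3 KO against Tdt Control was 0.79 ± 0.14, 1.73-fold (edgeR adjusted p = 0.0332). That call was lost with transcript length offsets and without either Jmjd3 KO or either Tdt Control library (adjusted p from 0.0534 to 0.186). Against Utx KO Cxcl10 rose by 0.88 ± 0.15, 1.84-fold (adjusted p = 0.0147), a call lost without any of the 4 knockout libraries in turn (0.0592 to 0.0873), and in Utx KO against Tdt Control its value was -0.09 ± 0.15 (adjusted p = 0.825). Art3, which overlaps it, had 4.51 and 4.32 CPM in Jmjd3 KO, 3.11 and 3.50 CPM in Utx KO, and 4.13 and 4.11 CPM in Tdt Control.

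Cxcl12 encodes the homeostatic chemokine of the set and was the one gene of the 8 called lower in Jmjd3 KO against Tdt Control. It stood at 130.3 CPM in both Jmjd3 KO libraries, at 137.0 and 130.5 CPM in Utx KO, and at 154.5 and 174.2 CPM in Tdt Control. All 4 knockout libraries lay below both controls, and the controls differed more from each other than the replicates of either knockout. Cxcl12 fell in Jmjd3 KO by 0.34 ± 0.07 on the log2 scale relative to Tdt Control (edgeR adjusted p = 0.0462). That call was lost with transcript length offsets, with only the 4 libraries compared, and without either Jmjd3 KO library, Tdt Control replicate 2 or either Utx KO library (adjusted p from 0.0671 to 0.221). In Utx KO its change was -0.30 ± 0.07 and was not called by edgeR (adjusted p = 0.0891), while DESeq2 called it (0.00281). The difference between the knockouts was -0.04 ± 0.07 (adjusted p = 0.779). The ratio of Cxcl1 to Cxcl12 in TPM was 6.42 and 6.05 in Jmjd3 KO, 5.10 and 6.08 in Utx KO, and 3.42 and 3.13 in Tdt Control.

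The quantifications are per transcript, so the members could also be read by isoform. Cxcl12 was the one gene with several abundant coding transcripts, which encode isoforms with different C-terminal ends. Cxcl12-202 made up 41.3% to 46.1% of its TPM over the 6 libraries, Cxcl12-203 29.6% to 33.8% and Cxcl12-201 21.8% to 25.5%, and Cxcl12-202 had its lowest shares in the 2 controls, at 41.3% and 41.6%. Ccl7 has a single annotated transcript, and in Ccl2, Cxcl1, Cxcl2, Cxcl5 and Cxcl10 a first coding transcript held 91.1% or more of the TPM in every library. The coding transcript Cxcl1-201 stood at 220.1 and 209.3 TPM in Jmjd3 KO, 173.4 and 196.5 TPM in Utx KO, and 120.5 and 131.0 TPM in Tdt Control. Its retained-intron transcript Cxcl1-202, the form that keeps intron sequence, stood at 3.17 and 3.23 TPM in Jmjd3 KO, 3.83 and 3.69 TPM in Utx KO, and 4.62 and 3.97 TPM in Tdt Control. The 2 transcripts ordered the groups oppositely, and the retained-intron share of Cxcl1 was 1.42% and 1.52% in Jmjd3 KO, 2.16% and 1.84% in Utx KO, and 3.69% and 2.94% in Tdt Control. Cxcl10 had a retained-intron share of 0.672% and 0.682% in Jmjd3 KO, 3.996% and 1.98% in Utx KO, and 2.54% and 3.79% in Tdt Control, on few reads. In Cxcl2 that share was 6.82% and 4.89% in Jmjd3 KO, 8.04% and 6.23% in Utx KO, and 5.76% and 5.36% in Tdt Control, with overlapping groups. These shares are estimates of the authors' quantification, and their differences were not tested.

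**Figure D4:**
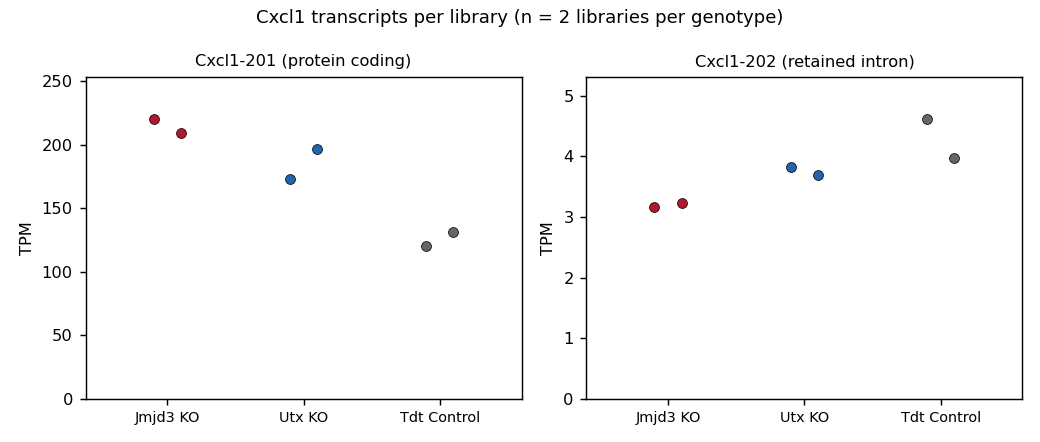
TPM (y axes, from 0) of the coding transcript Cxcl1-201 and of the retained-intron transcript Cxcl1-202, 1 point per library, with 2 libraries per genotype. Cxcl1-201 is highest in Jmjd3 KO, at 220.1 and 209.3 TPM, and lowest in Tdt Control, at 120.5 and 131.0 TPM, and Cxcl1-202 runs in the opposite order.

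The other chemokine ligands were read from a list of 30 genes, of which 20 were tested. Relative to Tdt Control 3 rose and 0 fell in Jmjd3 KO, beside 1.97% and 1.03% of all genes. At an unadjusted edgeR p under 0.05 there were 8 of the 20, beside 3410 of all 17084 genes. The median log2 fold change of the 20 was 0.24. Ccl3, which encodes macrophage inflammatory protein 1-alpha, had 6.96 and 5.40 CPM in Jmjd3 KO, 1.84 and 2.50 CPM in Utx KO, and 2.46 and 2.57 CPM in Tdt Control (log2 fold change against Tdt Control 1.30 ± 0.18, edgeR adjusted p = 0.0139). Ccl4, its beta counterpart, had 5.88 and 4.88 CPM in Jmjd3 KO, 1.97 and 2.50 CPM in Utx KO, and 2.55 and 2.54 CPM in Tdt Control (1.08 ± 0.16, adjusted p = 0.0158). Cxcl16, a membrane-bound ligand of CXCR6, rose by 0.75 ± 0.14 (adjusted p = 0.0356). Ccl3, Ccl4 and Cxcl16 all lie on chromosome 11, as does the targeted gene Kdm6b (69398508 to 69413675). Cxcl16 (70453983 to 70459984) lies nearer to Kdm6b than Ccl2 or Ccl5 does. The part of the targeted locus in these values was not tested. These 3 calls were lost without Jmjd3 KO replicate 1 and without either Tdt Control library, and that of Cxcl16 also without Jmjd3 KO replicate 2 and with transcript length offsets (adjusted p from 0.0638 to 0.185). In Utx KO against Tdt Control 0 of the 20 were called by edgeR, with 1 at an unadjusted p under 0.05 (2768 of all 17084 genes) and a median of -0.18. Relative to Utx KO 4 rose in Jmjd3 KO, Ccl3 by 1.51 ± 0.19 (adjusted p = 0.00479), Ccl4 by 1.26 ± 0.16 (0.00554), Cxcl16 by 0.87 ± 0.14 (0.0139) and Ccl8, a further monocyte attractant next to Ccl2 and Ccl7, by 1.49 ± 0.33 (0.0371). Cx3cl1, the gene of the membrane-bound chemokine fractalkine, fell by 0.35 ± 0.08 (adjusted p = 0.0389) and was named after its value was seen. Over all genes 5.13% were called higher and 2.89% lower in Jmjd3 KO against Utx KO. Ccl8 lost its call without any of the knockout libraries and with transcript length offsets (0.0562 to 0.198), and Cxcl16 without either Jmjd3 KO library, without Utx KO replicate 1 and with length offsets (0.0717 to 0.0871).

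**Figure D5:**
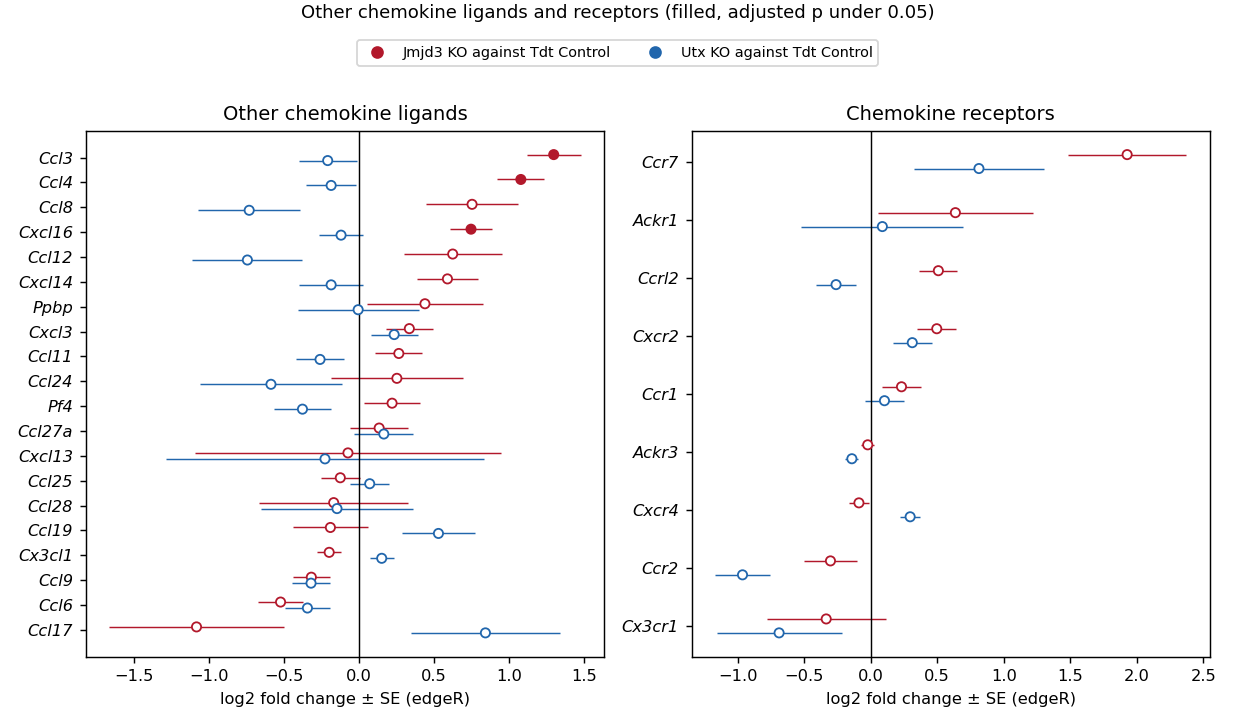
Log2 fold changes with SE (x axes, edgeR, 2 libraries per group) of the 20 other chemokine ligands and the 9 chemokine receptors tested (y axes), in Jmjd3 KO against Tdt Control and Utx KO against Tdt Control. Filled points have an adjusted p under 0.05, which Ccl3, Ccl4 and Cxcl16 reach in Jmjd3 KO.

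Genes beside the chemokine genes on the chromosome were read within 500 kb of each start. At Ccl2 and Ccl7 the 3 tested neighbours are the chemokine genes Ccl8, Ccl11 and Ccl12. For Jmjd3 KO against Tdt Control their log2 fold changes were 0.76 ± 0.31, 0.27 ± 0.16 and 0.63 ± 0.33, and for Utx KO -0.73 ± 0.34, -0.26 ± 0.16 and -0.74 ± 0.37, and none of these was called (edgeR adjusted p from 0.227 to 0.489). Around Ccl5, 6 of 21 tested neighbours were called higher in Jmjd3 KO than in Tdt Control and 0 lower, beside 1.97% and 1.03% of all genes. Among the 6 were Ccl3, Ccl4, the unnamed transcript AA465934 (3.26 ± 0.14, adjusted p = 6.67e-05) and Ap2b1, which encodes a clathrin adaptor subunit (0.68 ± 0.07, adjusted p = 0.00324). In Utx KO 0 of these 21 were called. Around Cxcl1, Cxcl2 and Cxcl5 0 of 10 neighbours were called in Jmjd3 KO against Tdt Control. In Utx KO Areg, the gene of the growth factor amphiregulin, was called lower (-0.82 ± 0.13, adjusted p = 0.0283), a call lost with length offsets, with only the 4 libraries compared and without any library but Utx KO replicate 2 (0.0528 to 0.144). Around Cxcl10 0 of 15 neighbours were called in Jmjd3 KO against Tdt Control. In Utx KO Stbd1, the gene of a glycogen-binding protein, was called higher than in Tdt Control (0.30 ± 0.05, adjusted p = 0.0407), a call lost with length offsets, with only the 4 libraries compared and without any of the 6 libraries in turn (0.0772 to 0.197). Naaa, the gene of an amidase of lipid amides, was called higher in Jmjd3 KO than in Utx KO (0.54 ± 0.12, adjusted p = 0.0361), a call lost with length offsets and without either Jmjd3 KO library, Tdt Control replicate 1 or Utx KO replicate 1 (0.0515 to 0.2). Between the knockouts 7 of the 21 neighbours of Ccl5 were also called higher in Jmjd3 KO and 0 lower, beside 5.13% and 2.89% of all genes. The 1 neighbour of Cxcl12, Tmem72, was called in no comparison (adjusted p of 0.461, 0.881 and 0.576).

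Of 22 chemokine receptor genes 9 were tested, and 0 were called by edgeR in Jmjd3 KO or Utx KO against Tdt Control, with 3 in each comparison at an unadjusted p under 0.05. Over all 17084 genes 3410 in Jmjd3 KO and 2768 in Utx KO were at an unadjusted p under 0.05 in these comparisons. Cxcr4, the receptor of CXCL12 on satellite cells and leukocytes, had 87.0 and 81.2 CPM in Jmjd3 KO, 117.0 and 102.8 CPM in Utx KO, and 91.6 and 87.4 CPM in Tdt Control. Its log2 fold change against Tdt Control was -0.09 ± 0.08 in Jmjd3 KO (adjusted p = 0.568) and 0.30 ± 0.08 in Utx KO (0.117; called by DESeq2, 0.00818), and it was lower in Jmjd3 KO than in Utx KO (-0.39 ± 0.08, adjusted p = 0.0251). That call was lost without either Jmjd3 KO library and without Utx KO replicate 1 (0.0875 to 0.157). Ackr3, the other CXCL12 receptor, stood at 60.3 CPM in both Jmjd3 KO libraries, 55.2 and 55.8 CPM in Utx KO, and 62.1 and 60.4 CPM in Tdt Control and was called in no comparison (adjusted p of 0.834, 0.208 and 0.177). Cxcr2, the receptor of CXCL1, CXCL2 and CXCL5 and a neutrophil gene, had 10.9 and 7.93 CPM in Jmjd3 KO, 8.33 and 8.25 CPM in Utx KO, and 6.41 and 6.95 CPM in Tdt Control (0.50 ± 0.15 and 0.31 ± 0.15 against Tdt Control, adjusted p = 0.116 and 0.353). Ccr2, the receptor of CCL2 and CCL7 and a monocyte gene, had 4.63 and 5.40 CPM in Jmjd3 KO, 3.22 and 3.13 CPM in Utx KO, and 4.88 and 7.53 CPM in Tdt Control. Its changes against Tdt Control were -0.30 ± 0.20 in Jmjd3 KO (adjusted p = 0.437; 0.047 without Tdt Control replicate 2, adjusted p = 0.921) and -0.96 ± 0.21 in Utx KO (0.0715; called by DESeq2, 0.00222). Cxcr3, the receptor of CXCL10, had 0.0132 to 0.0609 CPM and was not tested. In Jmjd3 KO against Utx KO the decoy receptor gene Ccrl2 was also called (0.77 ± 0.15, adjusted p = 0.0215), but not without Jmjd3 KO replicate 1 or either Utx KO library (0.0535 to 0.135).

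Genes upstream of chemokine transcription (37 cytokine, receptor, NF-kB, interferon regulatory factor and STAT genes, all tested) had 4 called higher and 0 lower in Jmjd3 KO against Tdt Control, with a median log2 fold change of 0.23. Nfkbie and Nfkbia encode NF-kB inhibitors that are themselves NF-kB target genes, Il1a encodes interleukin-1 alpha, and Tnfrsf1b a receptor of tumour necrosis factor. Nfkbie changed by 0.61 ± 0.09 (edgeR adjusted p = 0.0154), Il1a by 0.86 ± 0.14 (0.0223), Nfkbia by 0.39 ± 0.06 (0.0249) and Tnfrsf1b by 0.58 ± 0.10 (0.0269). Nfkbia had 406.4 and 401.5 CPM in Jmjd3 KO, 284.5 and 322.3 CPM in Utx KO and 317.6 and 301.3 CPM in Tdt Control. Each of the 4 calls was lost when Jmjd3 KO replicate 1 or Tdt Control replicate 1 was left out, and each also without at least 1 further library (adjusted p from 0.0639 to 0.155). In Utx KO against Tdt Control 1 of the 37 was called, Stat2, the interferon signal transducer, at 4.43 and 5.76 CPM in Utx KO against 2.25 and 2.10 CPM in Tdt Control (1.23 ± 0.16, adjusted p = 0.0182), a call lost with length offsets and without either Tdt Control library or Utx KO replicate 2 (0.058 to 0.109). Between the knockouts 8 were higher in Jmjd3 KO and 1, Stat2, lower (-0.84 ± 0.15, adjusted p = 0.0191). The higher ones included Il1a (0.96 ± 0.14, adjusted p = 0.00953), Nfkbia (0.41 ± 0.06, 0.0116) and the cytokine genes Il1b (0.66 ± 0.11, 0.0144) and Tnf (0.77 ± 0.14, 0.0179), and each of these 4 calls was lost without Jmjd3 KO replicate 1 and at least 1 other library (0.051 to 0.103).

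Among 10 genes that act on the decay of chemokine messages or on the signal behind them, 3 rose and 0 fell in Jmjd3 KO against Tdt Control. Zfp36 encodes tristetraprolin, which binds AU-rich message ends and speeds their decay, Tnfaip3 encodes the NF-kB inhibitor A20, and Tnip1 a partner of A20. Zfp36 had 284.2 and 282.2 CPM in Jmjd3 KO, 185.1 and 209.2 CPM in Utx KO, and 205.2 and 229.4 CPM in Tdt Control (0.38 ± 0.08, edgeR adjusted p = 0.0418), Tnfaip3 changed by 0.45 ± 0.08 (0.0274) and Tnip1 by 0.32 ± 0.05 (0.0223). None of the 3 calls held without any Jmjd3 KO or Tdt Control library (0.0512 to 0.207 over these and the length offsets). The same 3 were higher in Jmjd3 KO than in Utx KO, Zfp36 by 0.52 ± 0.08 (adjusted p = 0.00891), Tnfaip3 by 0.44 ± 0.08 (0.0169) and Tnip1 by 0.28 ± 0.05 (0.0212), and those calls were lost without either Jmjd3 KO library and without Utx KO replicate 1 (0.053 to 0.194). In Utx KO against Tdt Control 0 of the 10 were called by edgeR, with 2 at an unadjusted p under 0.05, beside 2768 of all 17084 genes.

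Of 16 genes for chemokine cleavage and display, 1 rose and 1 fell in Jmjd3 KO against Tdt Control. Mmp14, a membrane-bound metalloproteinase gene, had 86.2 and 90.2 CPM in Jmjd3 KO, 55.8 and 56.6 CPM in Utx KO, and 60.3 and 63.0 CPM in Tdt Control (0.52 ± 0.06, edgeR adjusted p = 0.00456). Cd44, the hyaluronan receptor gene, was lower in Jmjd3 KO (-0.28 ± 0.04, adjusted p = 0.0106), a call lost without either Jmjd3 KO library and without Tdt Control replicate 1 (0.0588 to 0.0786). Mmp2, a gelatinase gene whose product can clip CXCL12 and CCL7, had 45.1 and 44.4 CPM in Jmjd3 KO, 23.5 and 27.8 CPM in Utx KO, and 38.8 and 44.5 CPM in Tdt Control. It fell in Utx KO relative to Tdt Control by 0.70 ± 0.09 (adjusted p = 0.0213; lost without any library but Utx KO replicate 2, 0.051 to 0.111) and was higher in Jmjd3 KO than in Utx KO (0.80 ± 0.09, adjusted p = 0.00393), as was Mmp14 (0.65 ± 0.06, adjusted p = 0.00122).

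Over the 6 libraries the mean standardised level of the 7 inflammatory genes was 1.19 and 0.94 in Jmjd3 KO, -0.77 and -0.20 in Utx KO and -0.62 and -0.54 in Tdt Control. Among 9799 genes with a mean of at least 5 CPM, those whose log2 CPM followed it most closely were Cd24a (Pearson r = 0.996 over 6 libraries, which fall into 3 genotypes), Rex1bd (0.990), Cacng1 (0.988), Psap (0.988) and Arhgef3 (0.987). Cd24a, a surface glycoprotein gene, had 69.1 and 68.1 CPM in Jmjd3 KO, 46.4 and 53.5 CPM in Utx KO, and 47.5 and 49.1 CPM in Tdt Control. Nearest to Cxcl12 were Fhl2 (0.990), Cep170 (0.983), Tmem185b (0.981), Cstf2t (0.981) and Nop14 (0.980). Cep170, a centrosome protein gene, had 138.2 and 141.4 CPM in Jmjd3 KO, 141.2 and 137.6 CPM in Utx KO, and 152.0 and 159.4 CPM in Tdt Control. These likenesses are descriptions, picked as the highest of many over few libraries that share the genotype groups.

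The authors' deposited table gives its own log2 fold changes and adjusted p-values for the same genes. For Jmjd3 KO against Tdt Control the authors' deposited table has Ccl2 at 0.66 (adjusted p = 3.54e-09), Cxcl1 at 0.63 (1.1e-12), Cxcl2 at 0.53 (2.6e-07), Cxcl5 at 0.67 (1.17e-06), Cxcl10 at 0.67 (0.0176), Cxcl12 at -0.25 (0.00984) and Ccl7 at 0.22 (0.109). For Utx KO the authors' deposited table has Cxcl1 at 0.52 (2.51e-08), Ccl7 at -0.44 (0.00341), Cxcl12 at -0.18 (0.0731) and Ccl2 at -0.17 (0.175), with Cxcl2, Cxcl5 and Cxcl10 between -0.01 and 0.05. For those last genes edgeR gave 0.12, 0.16 and -0.09. The deposited fold changes do not follow from the p-values beside them, as Ccl2 in Utx KO has an SE of 0.122 and the authors' unadjusted p of 0.0129. How they were estimated is not given, so their sizes are not compared with those of edgeR. Ccl5 has no adjusted p in the authors' deposited table.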

How the data were processed

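Total RNA of 6 sorted satellite cell libraries was sequenced. Salmon 1.1.0, DESeq2 1.28.1, cutadapt 2.6 and the builds GRCm38 and mm10 are named in the submitters' processing notes, and no source used here gives the annotation release. Per the file headers, the authors deposited TPM and estimated counts (reads per transcript) with transcript lengths. Per the file headers, the authors' comparison tables hold a mean signal per gene, log2 fold changes, their SE and p-values before and after adjustment. The tables were used for the named values only.

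Estimated counts were summed per gene through GENCODE M21 and rounded. The 884 of 140748 transcripts not in M21 (0.151% to 0.175% of reads) were left out. Counts were fitted in R 4.3.3 with edgeR 4.0.16: all 6 libraries in 1 fit with a term for genotype, TMM normalisation, the default low-count filter (17084 genes kept) and the quasi-likelihood test, with 3 residual degrees of freedom. P-values were Benjamini-Hochberg adjusted over those genes. CPM use TMM library sizes, errors of levels are SD (n = 2), and errors of log2 fold changes are SE. The alternatives were each library left out, a replicate block, a fit of only the 4 libraries compared, length offsets, RLE size factors, no filter, a minimum of 5 CPM in 2 libraries, and DESeq2 1.42.0. Methods were tested on simulated data. Limits on reads cover counting error only.

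The members and the 12 gene lists (197 entries, all matched) were chosen with earlier results of these data known. All 8 members were named, as were up to 4 called genes with the smallest p per list, 5 chemokine receptors, up to 4 neighbours with the smallest p per place and the 5 genes most like each pattern. A gene that the rule names is not reported here. Markers quoted were chosen after their values were seen, as defining genes of their cell type or as examples of either direction. Likeness was Pearson's r of log2 CPM.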

Additional observations from a re-analysis of the deposited data

Results flagged for a closer look

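The knockouts differed from each other in 5 of the 8 chemokine genes by the edgeR test of that difference (Jmjd3 KO against Utx KO, 2 libraries each). Over all genes tested 5.13% were called higher and 2.89% lower in that comparison. The log2 difference was 0.93 for Ccl2 (adjusted p = 0.000717, n = 2 per group), 0.88 for Cxcl10 (0.0147), 0.82 for Ccl7 (0.00393), 0.50 for Cxcl5 (0.00922) and 0.40 for Cxcl2 (0.0261). In each of the 5 genes both Jmjd3 KO libraries lay above both Utx KO libraries. This only describes genes already picked by that call, and the share of all genes separated in this way was not counted. The calls of Cxcl10, Cxcl5 and Cxcl2 depended on single libraries, and those of Ccl2 and Ccl7 were kept in every setting. In 3 lists of other cell type markers, genes were also called higher in Jmjd3 KO and 0 lower. The macrophage and monocyte marker sum was 388.0 and 352.1 CPM in Jmjd3 KO against 229.4 and 264.8 CPM in Utx KO, with 9 of 17 genes called higher and 0 lower. The neutrophil marker sum was 306.6 and 234.7 CPM in Jmjd3 KO against 198.5 and 232.1 CPM in Utx KO, with 2 of 13 called higher and 0 lower. Of the 10 fibro-adipogenic progenitor markers 4 were called higher and 0 lower, and 7 had log2 fold changes above 0. Their sums, mostly Col3a1, were 1242 and 1225 CPM in Jmjd3 KO against 1046 and 1187 CPM in Utx KO. The part of these cells in the chemokine differences was not tested.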

How the results depend on the processing

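Ccl5 and Cxcl10 did not pass the filter of 5 CPM in 2 libraries and have no value under it. The 24 log2 fold changes of the chemokine genes otherwise kept their direction under every alternative run except where 1 library was left out for Ccl5 in Utx KO against Tdt Control (-0.84 to 0.69 over all alternatives) and for Cxcl1 in Jmjd3 KO against Utx KO (-0.052 to 0.134). The Ccl5 values turned to -0.18 without Tdt Control replicate 2 and -0.84 without Utx KO replicate 2, and Cxcl1 to -0.005 without Jmjd3 KO replicate 1 and -0.052 without Utx KO replicate 1. Of the 8 genes, 1 to 5 were called in Jmjd3 KO against Tdt Control with 1 library left out (6 with all), 0 to 1 in Utx KO against Tdt Control (2 with all) and 2 to 5 in Jmjd3 KO against Utx KO (5 with all). In Utx KO against Tdt Control 4 were called with no low-count filter, and 1 each with transcript length offsets and with only the 4 libraries compared. Whether same-numbered libraries were handled together is not given in the sample titles. Over all genes tested their deviations correlated at -0.01 (Jmjd3 KO and Tdt Control), -0.01 (Jmjd3 KO and Utx KO) and -0.05 (Utx KO and Tdt Control). That shows no shared deviation over the genes but cannot tell how the libraries were handled. With a replicate block 4, 1 and 5 of the 8 genes were called in the 3 comparisons, and 322, 133 and 948 of all genes. The calls lost with that block were Cxcl10 (edgeR adjusted p = 0.0627) and Cxcl12 (0.0884) in Jmjd3 KO and Ccl7 (0.0599) in Utx KO, each against Tdt Control. All genes called ran over the alternatives from 113 to 1872 in Jmjd3 KO against Tdt Control (513 in the fit reported), from 16 to 1399 in Utx KO against Tdt Control (293) and from 291 to 2856 between the knockouts (1370), highest with no low-count filter. DESeq2 gave 1041, 656 and 1782 and length offsets 331, 131 and 793. The median of the 8 genes was 0.50 in Jmjd3 KO against Tdt Control without Jmjd3 KO replicate 1, -0.17 in Utx KO against Tdt Control without Utx KO replicate 2, and, between the knockouts, 0.41 without Jmjd3 KO replicate 1 and 0.40 without Utx KO replicate 1. Among genes outside the 8, directions turned with 1 library left out for Ccr2 (-0.59 to 0.047) in Jmjd3 KO against Tdt Control, Cxcr2 in Jmjd3 KO against Utx KO (-0.065 to 0.40), Cxcl3 in Utx KO against Tdt Control (-0.002 to 0.52) and Tmem72 (-0.34 to 0.22 in Utx KO against Tdt Control, -0.52 to 0.018 in Jmjd3 KO against Utx KO), and with length offsets for Kdm6a in Jmjd3 KO against Tdt Control (0.11). The cause of these changes was not tested. Ccl5, with 5 to 23 reads per library, was the gene most limited by depth.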
